A study of Mus musculus with 4 samples.

Results

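The ribosomal protein genes of the adult mouse cerebellum were followed in RNA sequencing libraries from heterozygous Arid1b knockout mice and wild type littermates. Members were taken by symbol from a raw count table of 24015 genes: symbols starting with Rpl or Rps and a number, the stalk genes Rplp0, Rplp1 and Rplp2, and Rpsa, with at least 10 counts summed over the 4 libraries. The pattern matched 84 symbols, of which 81 reached the minimum, 48 of the large and 33 of the small ribosomal subunit. Of these, 80 had enough counts for a test. The libraries came from 1 heterozygous male, 1 heterozygous female, 1 wild type male and 1 wild type female of the C57BL/6N substrain, aged 140 to 150 days. Genotypes are labelled HT and WT. The labels name no treatment, and the sources used here do not say how the Arid1b allele was made. Each genotype therefore had 2 animals and each combination of genotype and sex had 1. The p-values rest on the spread between these few mice together with a spread estimate shared across genes.

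A ribosome joins a small subunit, which reads the messenger RNA, to a large subunit, which makes the peptide bonds. Each standard ribosomal protein is needed in about the same number as the others, and most are made from short, very abundant mRNAs in every cell type. Many of these mRNAs begin with a terminal oligopyrimidine (TOP) motif, a cytosine followed by a run of pyrimidines, through which the mTORC1 kinase pathway controls their translation. A few members are paralogues with tissue-limited or accessory expression, such as Rpl3l, the form of Rpl3 found in skeletal and cardiac muscle. Arid1b encodes a subunit of the BAF chromatin remodelling complex.

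Total counts were 15950899 to 20616219 per library, and a gene with no count could lie as high as 0.146 to 0.188 CPM (counts relative to library size) by counting error alone. Arid1b stood at 53.0 and 55.9 CPM in the male and female heterozygotes and at 69.9 and 70.9 CPM in the male and female wild types, so the groups did not overlap. The log2 fold change was -0.37 ± 0.11 (SE, edgeR adjusted p = 0.243). All 8 granule cell and all 7 Purkinje cell markers examined were in the table, and none was at 0 in all libraries. The summed level of the granule markers was 2519 and 2833 CPM in the heterozygotes against 3380 and 3870 CPM in the wild types, with 8 of 8 estimates below 0. That of the Purkinje markers was 4168 and 3809 CPM against 4476 and 5345 CPM, with 7 of 7 below 0. Of 5 interneuron markers, 4 were above 0 (median log2 fold change 0.73). Their sums differed less, at 914 and 867 CPM in the male and female heterozygotes against 867 and 792 CPM in the male and female wild types. Of the 5, 1, the glycine transporter gene Slc6a5, was called (edgeR adjusted p = 0.0473), where 0.0198% of all tested genes were. In bulk tissue, fewer cells of a type and less RNA per cell cannot be told apart.

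Starts of member genes are shown as background, and their part in the levels of the members was not tested. RefSeq (build GRCm38.p6) gave 72 annotated starts for 60 of the 81 members. The string CTTTCC on the gene's own strand lay within 30 bases of the start in 12 of these 72 (16.7%), in 11 members, against 2.89% of all 32851 starts. Each line gives the 15 bases before the start and the first 15 transcribed bases, with CTTTCC in capitals.
Rpl35, chr2:39005117-39005146, minus strand: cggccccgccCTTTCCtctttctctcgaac
Rps27, chr3:90213634-90213663, minus strand: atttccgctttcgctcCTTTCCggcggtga
Rpl28, chr7:4792950-4792979, plus strand: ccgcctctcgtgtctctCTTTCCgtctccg
Rpl18, chr7:45718056-45718085, plus strand: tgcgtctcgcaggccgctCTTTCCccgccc
Rpl38, chr11:114668565-114668594, plus strand: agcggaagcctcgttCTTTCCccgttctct
Rpl15, chr14:18270972-18271001, minus strand: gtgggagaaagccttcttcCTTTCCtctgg
Rpl3l, chr17:24727811-24727840, plus strand: gagtgttctagctctgtcatttgacctctg
Rps27l, chr9:66946071-66946100, plus strand: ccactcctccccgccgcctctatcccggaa
The first 6 lines were taken from the 11 members with the string. The paralogues Rpl3l and Rps27l have no match in the lines shown, as is the case for most member starts. In the longer stretch from 250 bases before to 50 bases after the start, CTTTCC on either strand was present in 47.2% of member starts and 26.6% of all starts. The ETS-type string CCGGAAGT was present in 15.3% against 3.89%, the E-box CACGTG in 11.1% against 7.15%, and TATAAA in 9.72% against 13.6%. No matches to different strings overlapped. A match is a string of letters and not a measured binding site.

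The members held 1.57% of all counts in the heterozygous male, 1.38% in the heterozygous female, 1.30% in the wild type male and 1.49% in the wild type female. The order of the libraries therefore did not follow genotype. Heterozygotes averaged 1.47% ± 0.137 and wild types 1.40% ± 0.132 (SD, n = 2), and the groups overlapped. Among males the heterozygote was 0.267 percentage points higher, whereas among females the difference was -0.114 points. The libraries with the higher shares were also the deeper ones, at 20287016 and 20616219 counts, and those with the lower shares had 16453759 and 15950899 counts. The part of depth in this order was not tested.

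**Figure D1:**
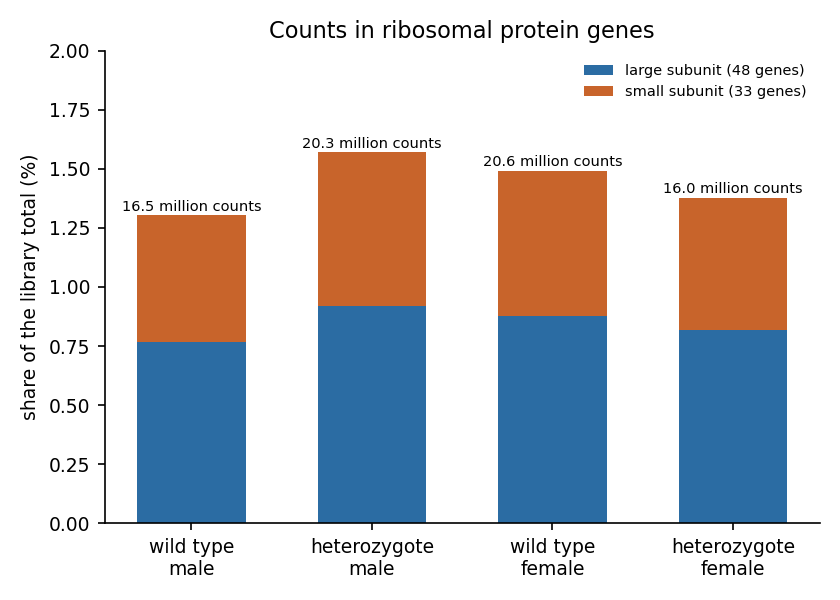
Share of each library's total count (%, bars from 0) held by large subunit genes (blue, 48 genes) and small subunit genes (orange, 33 genes), with the library's total count above each bar. The heterozygous male (1.57%) and the wild type female (1.49%) stood above the heterozygous female (1.38%) and the wild type male (1.30%).

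The large and small subunits varied together across libraries. Large subunit genes held 0.920%, 0.819%, 0.768% and 0.877% of counts in the heterozygous male, heterozygous female, wild type male and wild type female, and small subunit genes held 0.651%, 0.557%, 0.536% and 0.613% in the same order. The ratio of large to small subunit counts stayed between 1.41 and 1.47, with the highest value in the heterozygous female. Measured against each gene's own mean over the 4 libraries, 79 of 80 members were above that mean in the heterozygous male and 60 in the wild type female. In the heterozygous female 16 and in the wild type male 6 were above it. The median log2 deviations of the large subunit were 0.14, -0.05, -0.12 and 0.07 in the order given above, beside 0.13, -0.07, -0.13 and 0.06 for the small subunit.

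**Figure D2:**
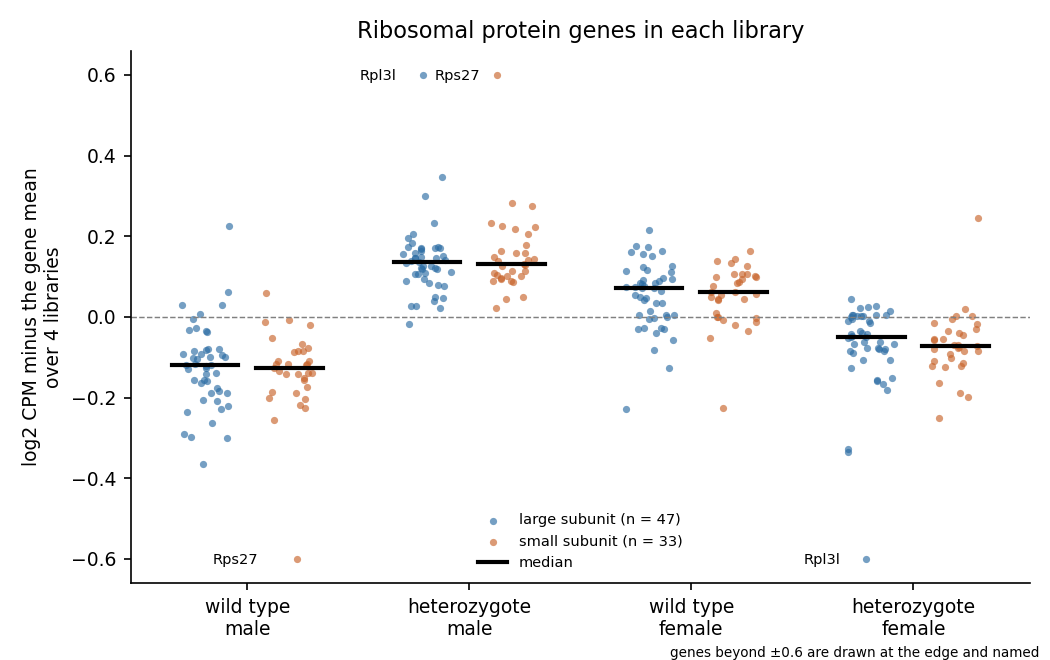
Log2 CPM of each tested member minus its mean over 4 libraries (vertical axis), for large (blue, n = 47) and small (orange, n = 33) subunit genes in each library, with black bars at the medians. Both subunits lay high in the heterozygous male (medians 0.14 and 0.13) and low in the wild type male (-0.12 and -0.13). Rpl3l and Rps27, beyond the axis, are drawn at its edge and named.

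No member passed the genotype test. With sex as a second term in edgeR's quasi-likelihood fit, 0 of 80 members reached an adjusted p of 0.05, where 0.0198% of all 15117 tested genes did. At an unadjusted p of 0.05, 1 member (Rps4l, higher) was below the threshold, against 11.7% of all tested genes, 5.22% higher and 6.46% lower. DESeq2, limma-voom and edgeR's likelihood ratio test also called 0 members. The median log2 fold change of the members, heterozygote over wild type, was 0.09, a 1.06-fold difference, and the middle quartiles ran from 0.03 to 0.11. Over all tested genes the median was 0.01 and the middle quartiles ran from -0.14 to 0.15. The estimate was above 0 in 66 of 80 members (82.5%) and in 51.1% of all genes. The large subunit had a median of 0.09 with 38 of 47 estimates above 0, and the small subunit 0.09 with 28 of 33.

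The small positive median depended on which animals were included. Leaving out the heterozygous male gave a median of -0.03 with 28 of 80 estimates above 0, and leaving out the wild type male gave 0.000901 with 41 of 80. Without the heterozygous female the median was 0.16 and without the wild type female 0.17. With 1 library left out the fit held genotype as its only term, so that genotype and sex are partly mixed, and without a wild type library its residual spread came from the 2 heterozygotes alone. In the fit without the wild type female, 9 members passed the threshold on the higher side (Rpl13, Rpl19, Rpl36, Rpl37, Rpl41, Rplp0, Rplp1, Rps29 and Rpsa), where 4.3% of all genes were called and 1.25% called higher. In the fit without the wild type male, Rps4l did so, where 17.5% of all genes were called and 9.53% called higher.

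The genotype ratio of most members had opposite signs in males and females. Among males, 79 of 80 members were higher in the heterozygote, with a median log2 ratio of 0.27 (1.21-fold). Among females, 73 of 80 were lower, with a median of -0.11 (0.924-fold). In 72 of 80 members the male ratio was above and the female ratio below 0, a pattern shown by 21.2% of all tested genes, and 0 members had the reverse, which 20.3% of all genes showed. Rpl3, Rpl4, Rpl6, Rpl10, Rpl34, Rpl36a and Rps4l were higher in both heterozygotes than in the wild type of the same sex, and Rps15a was lower in both. These ratios compare single libraries and carry no test. In the fit with sex and genotype, opposite signs in the sexes enter the residual spread against which the genotype effect is tested.

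**Figure D3:**
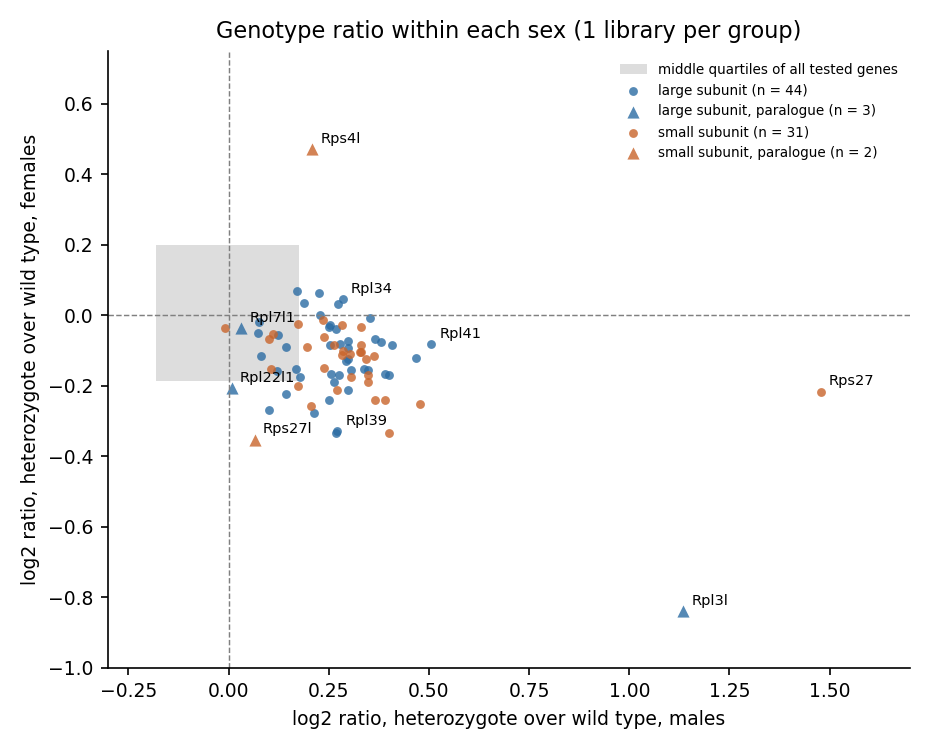
Log2 ratio of heterozygote over wild type in males (horizontal axis) and in females (vertical axis) for each tested member, large subunit blue and small subunit orange, paralogues as triangles. The grey box spans the middle quartiles of all tested genes in each sex. Most members lie at the lower right, with the medians at 0.27 and -0.11, and Rpl3l, Rps27 and Rps4l stand apart.

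To compare the genotype effect in females with that in males, a product of sex and genotype was fitted in edgeR, with the sex difference itself left to the residual. Its median over the members was -0.39 on the log2 scale, female minus male, beside 0.02 over all genes. By adjusted p 0 of 80 members passed, where 0.0198% of all genes did. At an unadjusted p of 0.05, 20 members were below the threshold, all of them with the female effect lower, where 3.55% of all genes were below it and 1.76% in that direction. Of these 20, 10 were large and 10 small subunit genes, and Rps29 (-0.73 ± 0.20), Rps14 (-0.73 ± 0.24) and Rps27a (-0.61 ± 0.21) had the smallest unadjusted p (SE, adjusted p = 0.998 for each).

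Other short transcripts went the same way, to a lesser extent among males and, outside the class of 600 to 1000 bases, among females. The members' transcripts had a median length of 751 bases in the GENCODE M21 annotation, against 2792 bases over all tested genes, whereas the median GC content was similar at 51.9% and 50.8%. Among genes other than members, those under 600 bases had median log2 ratios of 0.16 in males and -0.13 in females, and those of 4000 bases or more had -0.11 and 0.05. The male-up, female-down pattern was present in 46.0% of 285 other genes under 600 bases and in 7.56% of 4284 other genes of at least 4000 bases. In the same shortest class it was present in 26 of 28 members (92.9%), and between 600 and 1000 bases in 30 of 33 members (90.9%) against 46.3% of other genes. The members under 600 bases had median log2 ratios of 0.28 in males and -0.17 in females. Between 600 and 1000 bases the medians were 0.27 and -0.085 for members and 0.17 and -0.091 for other genes, so the female medians were alike there. Between 1000 and 2000 bases they were 0.25 and -0.11 for 17 members and 0.098 and -0.040 for other genes. The male-up, female-down pattern was present there in 82.4% of members and 32.3% of other genes. After the trend of each library with transcript length and GC content was removed, the member medians were 0.14 in males and -0.05 in females, beside -0.01 and -0.04 over all genes, and 52 of 80 members had the male-up, female-down pattern against 20.6% of all genes. The genotype median over the members was then 0.05.

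**Figure D4:**
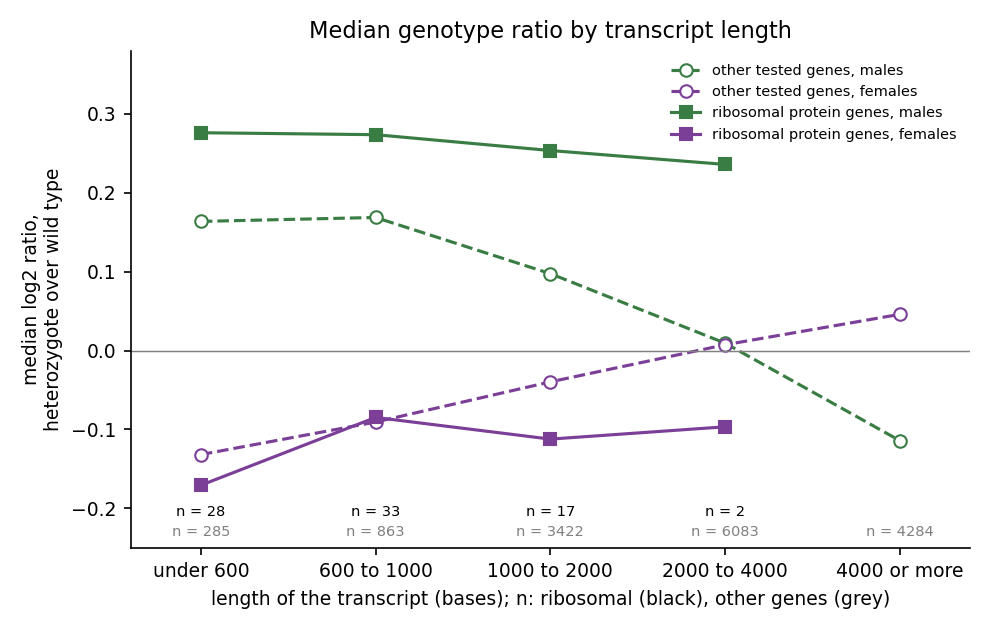
Median log2 ratio of heterozygote over wild type by transcript length class (bases), in males (green) and females (purple), for members (filled squares, solid lines) and other tested genes (open circles, dashed lines), with the number of genes below. The other genes change from 0.16 in males and -0.13 in females at under 600 bases to -0.11 and 0.05 at 4000 bases or more.

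The ribosomal stalk binds the translation factors that drive elongation. Its base gene Rplp0 stood at 227 and 205 CPM in the male and female heterozygotes and at 176 and 215 CPM in the male and female wild types. Rplp1 stood at 422 and 383 CPM against 322 and 429 CPM, and Rplp2 at 157 and 129 CPM against 131 and 163 CPM, in the same order. In all 3 stalk genes the groups overlapped. The log2 fold changes were 0.15 ± 0.12, 0.11 ± 0.14 and -0.03 ± 0.14 (SE, edgeR adjusted p of 0.697, 0.813 and 0.958).

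Rpsa, a small subunit protein also known as the laminin receptor, stood at 384 and 346 CPM in the male and female heterozygotes and at 299 and 375 CPM in the male and female wild types (log2 fold change 0.12 ± 0.13, edgeR adjusted p = 0.761). Rps27a, made as a fusion with ubiquitin, had 271 and 207 CPM against 210 and 244 CPM (0.06 ± 0.14, adjusted p = 0.914). Both were highest in the heterozygous male. Rps19, the small subunit gene most often mutated in Diamond-Blackfan anaemia, stood at 132 and 114 CPM against 108 and 123 CPM (0.09 ± 0.12, adjusted p = 0.819). Rpl5 and Rpl11 form, with the ribosome's smallest RNA, the particle that binds the p53 regulator Mdm2. Rpl5 stood at 146 and 128 CPM against 133 and 136 CPM (0.03 ± 0.11, adjusted p = 0.953), and Rpl11 at 258 and 222 CPM against 214 and 249 CPM (0.05 ± 0.12, adjusted p = 0.913). None of these genes separated the genotypes.

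Both heterozygotes lay above both wild types in 5 members, where 22.4% of all tested genes did, and below both in 0 members, where 22.3% did. The 5 were Rpl3, Rpl4, Rpl6, Rpl10 and Rps4l. Rpl10, an X-linked gene whose protein completes the large subunit late in its assembly, had 186 and 168 CPM in the male and female heterozygotes and 153 and 164 CPM in the male and female wild types (0.15 ± 0.11, adjusted p = 0.636). Rpl3, which lies near the site of peptide bond formation, had 484 and 453 CPM against 414 and 434 CPM (0.14 ± 0.10, adjusted p = 0.648). Rpl4, the member with the most counts (42708 over the 4 libraries), had 613 and 599 CPM against 545 and 571 CPM (0.12 ± 0.10, adjusted p = 0.704). Rpl6 had 227 and 212 CPM against 199 and 207 CPM (0.11 ± 0.10, adjusted p = 0.741). None of the 5 passed the test.

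Among the standard members of smallest genotype p, Rpl37 and Rpl41 code for short, basic proteins of the large subunit. Rpl37 stood at 189 and 174 CPM in the male and female heterozygotes and at 148 and 175 CPM in the male and female wild types (0.17 ± 0.11, adjusted p = 0.610). Rpl41, whose coding sequence has 78 bases, stood at 199 and 173 CPM against 140 and 184 CPM (0.21 ± 0.14, adjusted p = 0.623). In both genes the wild type male was the low library. On the lower side, Rpl28 had 163 and 149 CPM against 152 and 180 CPM (-0.08 ± 0.12, adjusted p = 0.836), Rpl24 106 and 99.5 CPM against 96.1 and 116 CPM (-0.04 ± 0.12, adjusted p = 0.931), and Rpl27a 140 and 116 CPM against 121 and 140 CPM (-0.03 ± 0.13, adjusted p = 0.954). In Rpl28 and Rpl24 the wild type female was the highest library. In Rpl27a it was level with the heterozygous male (140.2 and 139.9 CPM).

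The sex test, from the same fit, called 0 of 80 members, where 0.0595% of all tested genes passed, and the smallest adjusted p among members was 0.994. At an unadjusted p of 0.05, 1 member passed against 3.82% of all genes. The median log2 fold change, female over male, was 0.00351 with 43 members higher and 37 lower. The 1 member was Rpl22l1, a paralogue of the large subunit protein Rpl22, with 56.5 and 56.3 CPM in the heterozygous and wild type males and 38.1 and 44.04 CPM in the heterozygous and wild type females (-0.46 ± 0.13, edgeR adjusted p = 0.994, unadjusted p = 0.00357). Both females lay below both males. For its partner Rpl22 the sexes overlapped, at 126 and 115 CPM in males and 114 and 119 CPM in females (-0.05 ± 0.10). Next came the X-linked Rpl39, at 71.2 and 59.0 CPM in the heterozygous and wild type males and 46.0 and 57.8 CPM in the females (-0.33 ± 0.15), and the X-linked Rpl36a, at 90.3 and 77.1 CPM against 74.6 and 74.5 CPM (-0.16 ± 0.11). The X-linked Rps4x, whose gene escapes X inactivation in humans, had 288 and 237 CPM in males and 236 and 241 CPM in females (-0.13 ± 0.11). On the higher side in females stood Rpl13 (0.18 ± 0.14) and Rpl18 (0.12 ± 0.11).

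Per length, the large and small subunits had similar median levels, whereas single standard members differed widely. Of the 75 tested standard members, 73 had mean levels between 42.5 and 582 CPM, and per kilobase of transcript these 73 had a median of 230 CPM with middle quartiles of 174 and 332 CPM. The large subunit (43 genes) had a median of 230 and the small subunit (30 genes) of 228 CPM per kilobase. Rps29 was highest at 864 ± 131 CPM per kilobase (SD, n = 4), followed by Rplp1 at 780 ± 98.4 and Rps15 at 668 ± 74.7. Their ranges overlapped, at 717 to 1000 for Rps29, 646 to 861 for Rplp1 and 585 to 745 for Rps15. The fourth, Rpl9, reached 533 and so lay below the lowest library of each. Rps20 was low per kilobase of transcript (32.0 ± 3.29) under a transcript model of 3706 bases, but had 330 CPM per kilobase of its coding sequence. Per kilobase of transcript, the highest of the 73 was 27.0 times the lowest. Per kilobase of coding sequence the order changed, with Rpl41 (2232 CPM) above Rps29 (1971 CPM) and Rps24 (907 CPM) above Rps15 (763 CPM).

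**Figure D5:**
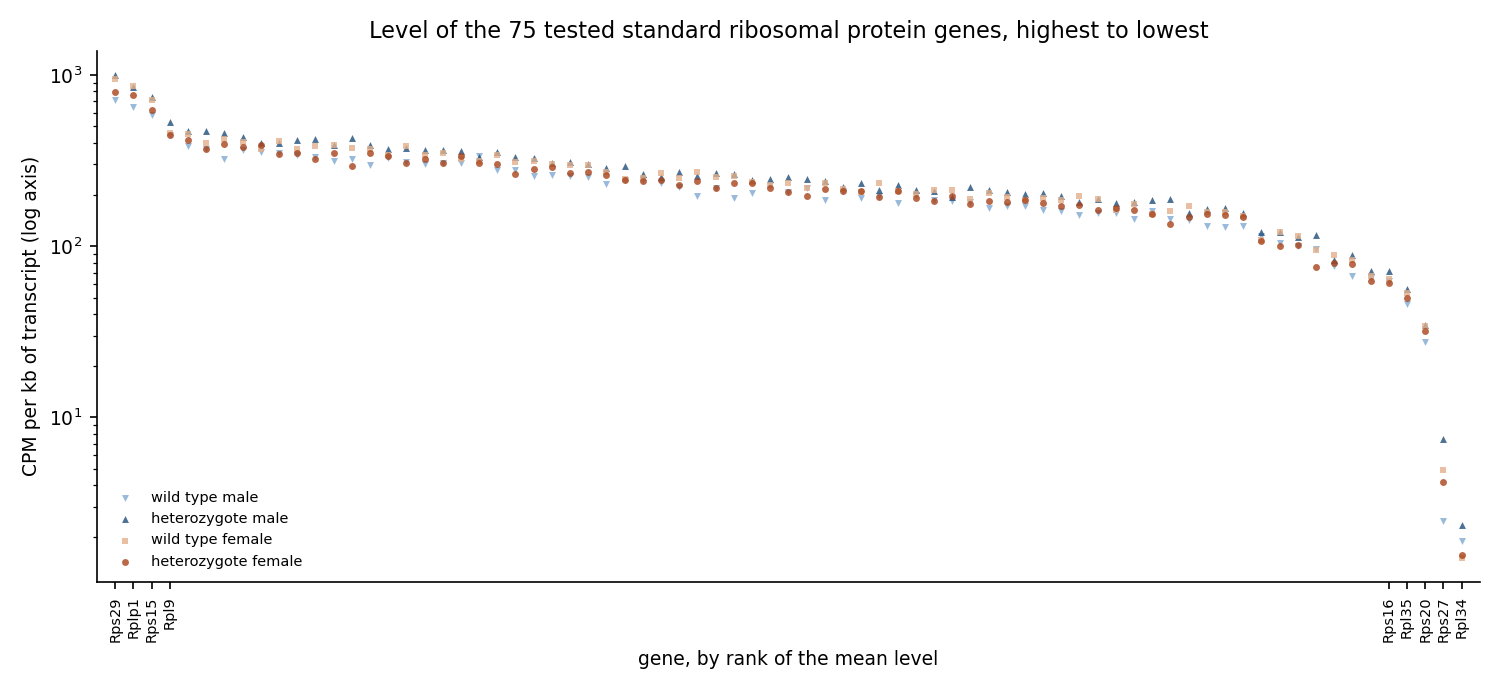
Level of the 75 tested standard members in CPM per kilobase of transcript (log axis), ordered from highest to lowest mean, with 1 point per library and the highest and lowest genes named. Rps29, Rplp1 and Rps15 lie at the top, and Rps27 (mean 4.75) and Rpl34 (mean 1.84) lie far below the other 73.

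A few standard members had almost no counts. Rps27, a zinc-binding protein of the small subunit, had 52, 23, 14 and 35 counts in the heterozygous male, heterozygous female, wild type male and wild type female, and Rpl34 had 23, 12, 15 and 15. Rpl30, which passed the minimum of 10 counts but not the filter for testing, had 5, 3, 2 and 7 counts. Rpl26 had 0 counts in every library. All 4 encode standard proteins of the ribosome, and the lowest of the other 73 standard members averaged 42.5 CPM. For each member the share of its 100-base windows that is identical to a window of another gene's transcript was computed, since such reads may be discarded or split, and the sources used here do not say how shared reads were counted. It was 98.4% for Rps27 (242 of 246 windows, all found in Rps27rt), 31.0% for Rpl34, 32.5% for Rpl30 and 36.8% for Rpl26. Shares of 50% or more were found in 32 members, among them Rpl10 (91.6%) and Rpl3 (79.4%), and the median over members was 40.6%. These shares come from the GENCODE M21 annotation, whereas the submitters name build mm9 for the counts. The rows of Rps27rt and Rpl34-ps1 were also at 0 in all libraries, and whether shared sequence lowered these counts was not tested.

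The coding sequences of Rps27 and Rps27rt are shown because reads that lie within them cannot be told apart. Over 255 bases they were identical, while the paralogue Rps27l matched Rps27 at 194 of 255 positions (76.1%). The first 60 coding bases from the GENCODE M21 transcripts (GRCm38) are given, with bases that differ from Rps27 in capitals.
Rps27: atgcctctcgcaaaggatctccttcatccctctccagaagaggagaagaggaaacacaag
Rps27rt: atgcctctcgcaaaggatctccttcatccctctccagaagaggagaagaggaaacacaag
Rps27l: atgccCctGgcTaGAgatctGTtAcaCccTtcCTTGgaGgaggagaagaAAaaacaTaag
Per kilobase of transcript, Rps27l averaged 28.7 CPM against 4.75 CPM for Rps27, and none of its windows was shared. Rps27l stood at 14.7 and 12.5 CPM in the male and female heterozygotes and 14.05 and 15.99 CPM in the male and female wild types, with overlapping groups (log2 fold change -0.14 ± 0.19, adjusted p = 0.826). Rps27 itself had the largest fold change of all members, 0.65 ± 0.49 (adjusted p = 0.672), on these low counts. Its male log2 ratio was 1.48 and its female ratio -0.22.

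Of the 7 paralogues that the symbol pattern matched, 5 were tested, and Rpl10l (0 counts) and Rpl39l (6 counts in all) fell below the minimum. Rpl10l is a testis form of Rpl10 and Rpl39l a testis form of Rpl39. Rpl3l was the lowest tested member, with 27, 7, 9 and 18 counts (1.33, 0.440, 0.547 and 0.872 CPM) in the heterozygous male, heterozygous female, wild type male and wild type female. The heterozygotes were the highest and the lowest library, and the log2 fold change was 0.23 ± 0.63 (adjusted p = 0.928). It was -0.70 without the heterozygous male and 0.87 without the heterozygous female. Per kilobase of transcript, Rpl3l averaged 0.580 ± 0.292 CPM and Rpl3 330 ± 22.0 CPM (SD, n = 4). The heterozygous male also held nearly all of the skeletal muscle signal, with 294 counts of the muscle creatine kinase Ckm and 774 of the muscle actin Acta1, against 1 to 5 and 29 to 72 in the other libraries. The 5 muscle markers summed to 115 CPM in that library and to 5.23 to 8.83 CPM in the others, and 0 of the 5 were at 0 throughout. The wild type female, which had the second highest Rpl3l count, had a muscle sum of 8.83 CPM. The part of muscle RNA in the Rpl3l level was not tested.

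Rpl3 and Rpl3l shared 73.2% of aligned coding positions and no window of 100 bases, so their reads can be separated. The first 60 coding bases from the same annotation show how the paralogue departs from its standard gene, with bases that differ from Rpl3 in capitals.
Rpl3: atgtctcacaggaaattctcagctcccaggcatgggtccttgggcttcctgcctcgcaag
Rpl3l: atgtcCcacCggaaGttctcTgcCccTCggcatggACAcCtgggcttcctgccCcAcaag
These 60 bases differ at 13 positions. Rpl7l1, which takes part in large subunit assembly and matched Rpl7 at 51.7% of aligned coding positions, was the steadiest paralogue, at 57.5, 54.4, 56.3 and 55.8 CPM in the heterozygous male, heterozygous female, wild type male and wild type female (-0.00331 ± 0.12, adjusted p = 0.995). Rpl7 stood at 316, 264, 258 and 289 CPM in the same order. Rpl22l1 matched Rpl22 at 66.9% and had a genotype log2 fold change of -0.10 ± 0.13 (adjusted p = 0.823).

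Rps4l, listed by RefSeq as a transcribed pseudogene, had the smallest genotype p among the members. It stood at 28.9 and 32.2 CPM in the male and female heterozygotes and at 24.99 and 23.2 CPM in the male and female wild types. Both heterozygotes were above both wild types, and the heterozygous female, low for most members, was the highest library. The log2 fold change was 0.34 ± 0.15 (edgeR adjusted p = 0.396, unadjusted p = 0.0377), with ratios of 0.21 in males and 0.47 in females. Only 1.7% of its windows were shared with another gene. Rps4x, the standard gene of the same number, stood at 288 and 236 CPM in the heterozygotes against 237 and 241 CPM in the wild types (0.13 ± 0.11, adjusted p = 0.715).

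Some genes that encode ribosomal proteins under other names were not in the pattern and are given beside the members. Fau makes a ribosomal protein fused to a ubiquitin-like part, Gnb2l1 encodes the small subunit scaffold Rack1, and Rpl36al is a copy of Rpl36a. Their male log2 ratios were 0.29, 0.32 and 0.34, and their female ratios -0.08, -0.12 and -0.02. These 3 genes thus had the signs of most members, and none passed the genotype test (adjusted p of 0.779, 0.817 and 0.745).

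No gene of the related translation lists passed the genotype test. Of 23 other TOP mRNAs, 15 had estimates above and 8 below 0 (median 0.06), with median ratios of 0.12 in males and -0.04 in females. At an unadjusted edgeR p of 0.05, 1 of the 23 was below the threshold, with its estimate below 0, against 11.7% of all tested genes. Eef2, the elongation factor that moves the ribosome along the mRNA, stood at 1687 and 1676 CPM in the male and female heterozygotes and at 1481 and 1470 CPM in the wild types (0.19 ± 0.10, adjusted p = 0.506). Of 36 initiation factors 23 were above 0 (median 0.04), of 14 elongation factors 9 (0.06), of 39 ribosome biogenesis genes 26 (0.05), of 14 RNA polymerase I genes 6 (-0.04), of 23 mTORC1 pathway genes 14 (0.01) and of 14 nascent chain factors 11 (0.06), beside 51.1% of all genes. Rps6kb1 and Rps6kb2, the kinases that phosphorylate Rps6, had log2 fold changes of -0.31 ± 0.12 and -0.31 ± 0.13 (adjusted p of 0.353 and 0.398). Eef2k, which inhibits Eef2, had -0.31 ± 0.11 (adjusted p = 0.342).

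The proteins of the mitochondrial ribosome had the highest genotype and male medians among the related translation lists. Of 77 tested genes, 65 had estimates above 0 (median 0.10), the median ratios were 0.20 in males and -0.04 in females, and in 45 of 77 the heterozygote was higher among males and lower among females. Mrpl47 had the smallest p of the list, at 22.3 and 20.2 CPM against 15.4 and 16.8 CPM in the male and female wild types (0.40 ± 0.16, adjusted p = 0.372). Markers of some other cell types also varied between the libraries, some with the signs of most members and some without. In 4 of 5 microglia markers the heterozygote was higher among males and lower among females, and their sums were 85.8 and 58.2 CPM in the male and female heterozygotes and 61.3 and 67.9 CPM in the male and female wild types. The 4 tested skeletal muscle markers had the same signs, with median ratios of 3.90 in males and -0.36 in females. Choroid plexus markers summed to 2656 CPM in the heterozygous male against 1440 to 1528 CPM in the other libraries, and 6 of 6 had genotype estimates above 0. Of these 6, 1 was higher among males and lower among females. Markers of the meninges summed to 58.3 CPM in the heterozygous male against 35.7 to 46.3 CPM, with 4 of 4 above 0 and 2 of 4 with those opposite signs. Of 7 oligodendrocyte markers, 7 were above 0 and 2 had the opposite signs. Of 5 endothelial markers, 5 were below 0 and 0 had them. Pituitary markers summed to 29.7 CPM in the heterozygous female against 2.56 to 4.41 CPM in the other libraries. Of these 3 markers, 2 were above 0 and 1 had the opposite signs. None of these markers was at 0 in all libraries, and their part in the ribosomal protein pattern was not tested. All 5 nuclear and ribosomal RNAs taken as signs of RNA quality were lower in the heterozygotes. Their median ratios were -0.52 in males and -0.34 in females, and their part in that pattern was not tested either. Among them Rn45s, the ribosomal RNA precursor, stood at 1836 and 2261 CPM in the heterozygotes against 2417 and 3227 CPM in the wild types (-0.45 ± 0.10, edgeR adjusted p = 0.156). DESeq2, edgeR's likelihood ratio test and the fit without a low-count filter did call Rn45s.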

How the data were processed

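Strand-specific libraries of poly(A) RNA from 4 cerebella shared 1 sequencing lane (single-end, 100 bases), per the labels' protocols. The authors deposited raw read counts per gene symbol. The submitters' processing notes name STAR, featureCounts, FastQC, edgeR and build mm9, and versions, strand setting and treatment of shared reads are not given in the sources used here.

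Genes were kept with filterByExpr by genotype (15117 of 24015, with 99.9% of counts), scaled by TMM and fitted in edgeR 4.0.16 (R 4.3.3) by a robust quasi-likelihood model with sex and genotype, leaving 1 residual degree of freedom. That degree of freedom holds the product of sex and genotype. A prior shared across genes added a median of 10.6 degrees of freedom. Two-sided p-values were Benjamini-Hochberg adjusted over all tested genes at 0.05. SE is the fold change over the square root of F. Ratios within a sex used a prior count of 2. Levels are TMM-scaled CPM.

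Lengths and windows came from the shortest GENCODE M21 principal transcript (99.3% of tested genes). Named members were paralogues with their standard genes, stalk and X-linked genes, Rpsa, Rps27a, Rps19, Rpl5, Rpl11, those of smallest p, of highest and lowest level, and those not tested. Beyond that rule, Rpl4, Rpl6, Rps14, Rps15a, Rpl9 and the members called with 1 library left out, and Fau, Gnb2l1, Rpl36al, Ckm, Acta1 and Slc6a5, were named after their values were seen. Single values of 2 further genes are not reported here. Members and lists were chosen with earlier results of these data known. The alternatives were DESeq2 1.42.0, limma-voom 3.58.1, a likelihood ratio test, other scalings, filters and thresholds, no sex term, removal of the length and GC trend, and each library left out. The product fit and the shares with a library left out were added after seeing the data.

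In 3 simulations of the genotype comparison, with about 14965 genes tested, 1.5-fold changes were found in 38.5% of cases, 2-fold changes in 71.1% and 4-fold changes in 94.9%, with 4.03% of calls false. Each gene was drawn independently, with no sex effect and no trend with transcript length, and no change below 1.5-fold was simulated. The rates may therefore differ in the real libraries.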

Additional observations from a re-analysis of the deposited data

Results flagged for a closer look

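In each result here the genotype difference had one sign in males and the other in females. With 1 pair of libraries per sex, the difference between the sexes was not tested for these summed or median values, and per gene no member passed the test after adjustment. The share of counts in ribosomal protein genes, heterozygote minus wild type, was 0.267 percentage points in males and -0.114 in females. The median log2 ratio over all tested members was 0.27 in males and -0.11 in females. For the large subunit it was 0.27 and -0.12, and for the small subunit 0.28 and -0.11.

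Among related lists, the mitochondrial ribosomal proteins had median log2 ratios of 0.203 in males and -0.0406 in females. The other TOP mRNAs had 0.115 and -0.0438, the nascent chain factors 0.105 and -0.0437, the initiation factors 0.0758 and -0.0210, and the RNA polymerase I genes 0.0401 and -0.110. No group had 4 or more libraries, so single libraries were not tested for standing apart.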

How the results depend on the processing

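With all 4 libraries kept, 0 members passed the genotype or the sex test under any alternative run, and the genotype median lay between 0.05 (length and GC trend removed) and 0.09. With 1 library left out, the number of members past the genotype threshold ranged from 0 to 9, the genotype median from -0.03 to 0.17, and the share difference from -0.02 to 0.17 percentage points. The difference between the large and small subunit medians was 0.00131 and ranged from -0.0188 to 0.0292 with 1 library left out. The cause of these changes was not tested. Of 33 named members tested, 25 changed sign under at least 1 alternative, 3 of them with all 4 libraries kept. The replicate numbers only name the libraries, but sex pairs 1 heterozygote with 1 wild type and is a term of the fit. Without it, 0 members passed and the genotype median was 0.09. Low counts limit Rpl3l, Rps27, Rpl34 and Rpl30, with SE of 0.49 or more on the log2 scale for the tested 3. Intervals of counting error leave out the spread between animals, and 2 animals per genotype limit every comparison.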
